A study of Mus musculus with 10 samples.

Results

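The matrix metalloproteinases, the ADAMTS proteases and their tissue inhibitors were taken as the protein coding genes whose symbol is Mmp, Adamts or Timp followed by a digit. The rule found 45 genes of the 49671 gene IDs measured, of which 21811 are protein coding: 22 Mmp, 19 Adamts and 4 Timp genes. They were measured by RNA sequencing of whole skin, 1 library per mouse, in 5 mice homozygous for the B6;129S4-Npytm2Rpa/J allele (NPYtet; replicates 2 and 5 labelled male, replicates 1, 3 and 4 labelled female) and 5 wildtype siblings (WT; replicates 2, 4 and 5 labelled male, replicates 1 and 3 labelled female). All mice were 22 weeks old and reared in standard conditions. The allele is present in every cell of the animal, so a difference in skin need not arise in skin.

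Matrix metalloproteinases are zinc proteases that cleave collagens, gelatins and other proteins of the extracellular matrix, and most are made as inactive proenzymes that have to be cut before they act. The ADAMTS proteases share the metalloproteinase fold and carry thrombospondin repeats; some trim procollagen, others cut large proteoglycans such as versican and aggrecan. The TIMPs bind and block the active enzymes, and TIMP2 also helps the membrane enzyme MMP14 to activate MMP2. In skin these genes are known from fibroblasts of the dermis, from keratinocytes at wound edges and from infiltrating leukocytes, while the keratins Krt6a, Krt6b, Krt16 and Krt17 mark stressed or wounded epidermis.

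The smallest library, NPYtet replicate 5, held 23209405 counts and the largest, WT replicate 4, held 53357695, and 3 reads, the limit that a count of 0 allows, stood for 0.0497 to 0.199 CPM (counts relative to the scaled library size); this limit covers counting error only. Npy itself took 3913 to 7686 reads in the NPYtet libraries and 4 to 80 in the WT libraries, and was the single gene of 18060 past the genotype threshold (log2 fold change 7.45 ± 0.62 SE, edgeR adjusted p = 0.000109). Several libraries stood apart. NPYtet replicate 5 had 9.26% mitochondrial reads and 19953 genes with a read, WT replicate 2 had 21144 such genes, and the other libraries had 24710 to 26323. The NPYtet library labelled female as replicate 1 held 2 Xist reads and 1513 Ddx3y reads, which goes against its label; every sex difference below uses the labels, and the calls named are given again without it. Markers of dermis and epidermis were present in every library, with summed CPM of the 6 fibroblast markers at 2990 to 6088 in NPYtet and 1627 to 4002 in WT skin, and that of the 5 basal keratinocyte markers at 8952 to 32382 in NPYtet and 6734 to 56205 in WT skin. In whole skin, fewer cells of a type and less RNA per cell cannot be told apart.

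Of the 45 genes, 35 had a read in every library and 39 passed the filter on low counts and were tested (17 Mmp, 18 Adamts and all 4 Timp genes). The other 6 were Mmp1b, Mmp7, Mmp10, Mmp20, Mmp24 and Adamts13, and Mmp7 had no read in any library. On the scale of CPM per kilobase of exon (RPKM), which allows genes to be compared, the mean level over the 10 libraries ran from 0 to 215 with a median of 1.43; 13 genes exceeded 10 and 20 stayed under 1. Timp2, the inhibitor that also takes part in MMP2 activation, had the highest mean at 215 RPKM. It was followed by the gelatinase Mmp2 at 185 RPKM, the stromelysin Mmp3 at 105 RPKM, the membrane-bound Mmp14 at 48.5 RPKM, the procollagen N-proteinase Adamts2 at 27.2 RPKM and Timp1 at 25.2 RPKM.

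**Figure D1:**
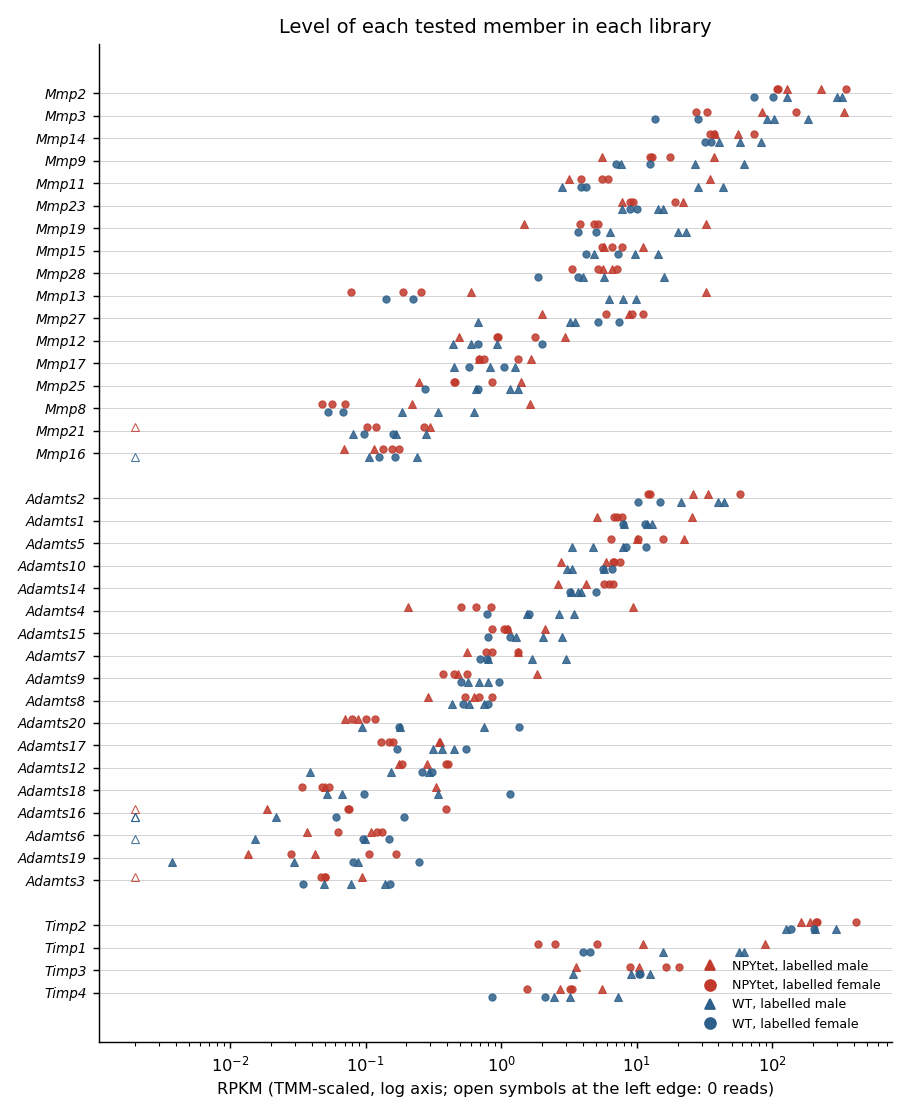
Level of each of the 39 tested genes in each of the 10 libraries, in RPKM on a log axis, with NPYtet in red above WT in blue, triangles for libraries labelled male and circles for those labelled female; open symbols at the left edge are libraries with 0 reads. Timp2, Mmp2 and Mmp3 lie farthest right, and Mmp13, Mmp8 and Timp1 are spread widely between the triangles and the circles.

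A few genes made up most of each family's summed RPKM. Mmp2 held 29.7% to 53.6% of the Mmp sum over the 10 libraries, Mmp3 held 8.70% to 44.2% and Mmp14 held 7.24% to 20.4%, while Timp2 held 64.4% to 94.4% of the Timp sum. The libraries with the lowest Mmp2 share and the highest Mmp3 share were the same one, NPYtet replicate 2. The Mmp sum was 648, 768, 229.9, 222 and 345 RPKM in NPYtet replicates 1 to 5, against 155, 641, 218, 320.3 and 715 RPKM in WT replicates 1 to 5. The summed levels averaged 443 ± 251 RPKM in NPYtet and 409.9 ± 253 RPKM in WT skin for Mmp genes (SD, n = 5 each), a difference far inside the spread. Adamts sums averaged 69.7 ± 19.9 RPKM in NPYtet and 60.5 ± 13.8 RPKM in WT skin, and Timp sums averaged 274 ± 104 RPKM in NPYtet and 234 ± 90.4 RPKM in WT skin. The ratio of the Mmp to the Timp sum was 1.60 ± 0.69 in NPYtet and 1.67 ± 0.62 in WT skin, and it ran from 0.951 to 2.63 in NPYtet and from 0.996 to 2.30 in WT libraries.

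The comparison of NPYtet with WT skin asked whether these genes follow the altered allele. None of the 39 tested genes passed the threshold, an edgeR quasi-likelihood p adjusted over all 18060 genes of under 0.05, against 0.00554% of all genes (Npy alone). At an unadjusted p under 0.05, 2 members were higher in NPYtet skin (Mmp3 and Adamts5), where 1.46% of all genes were, and 1 was lower (Adamts20), where 2.14% of all genes were. None of the 39 had NPYtet and WT values that did not overlap, against 0.305% of all genes. The log2 fold change was above 0 for 26 of the 39 with a median of 0.14, and the median over all genes was -0.01. By family it was above 0 for 13 of 17 Mmp genes (median 0.22), 10 of 18 Adamts genes (median 0.03) and 3 of 4 Timp genes (median 0.18). DESeq2 called 1 of the 39, Adamts20, lower in NPYtet skin, and 35 of all 18060 genes, 31 of them lower. With limma voom and quality weights 0 of the 39 and 2 of all genes were called.

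**Figure D2:**
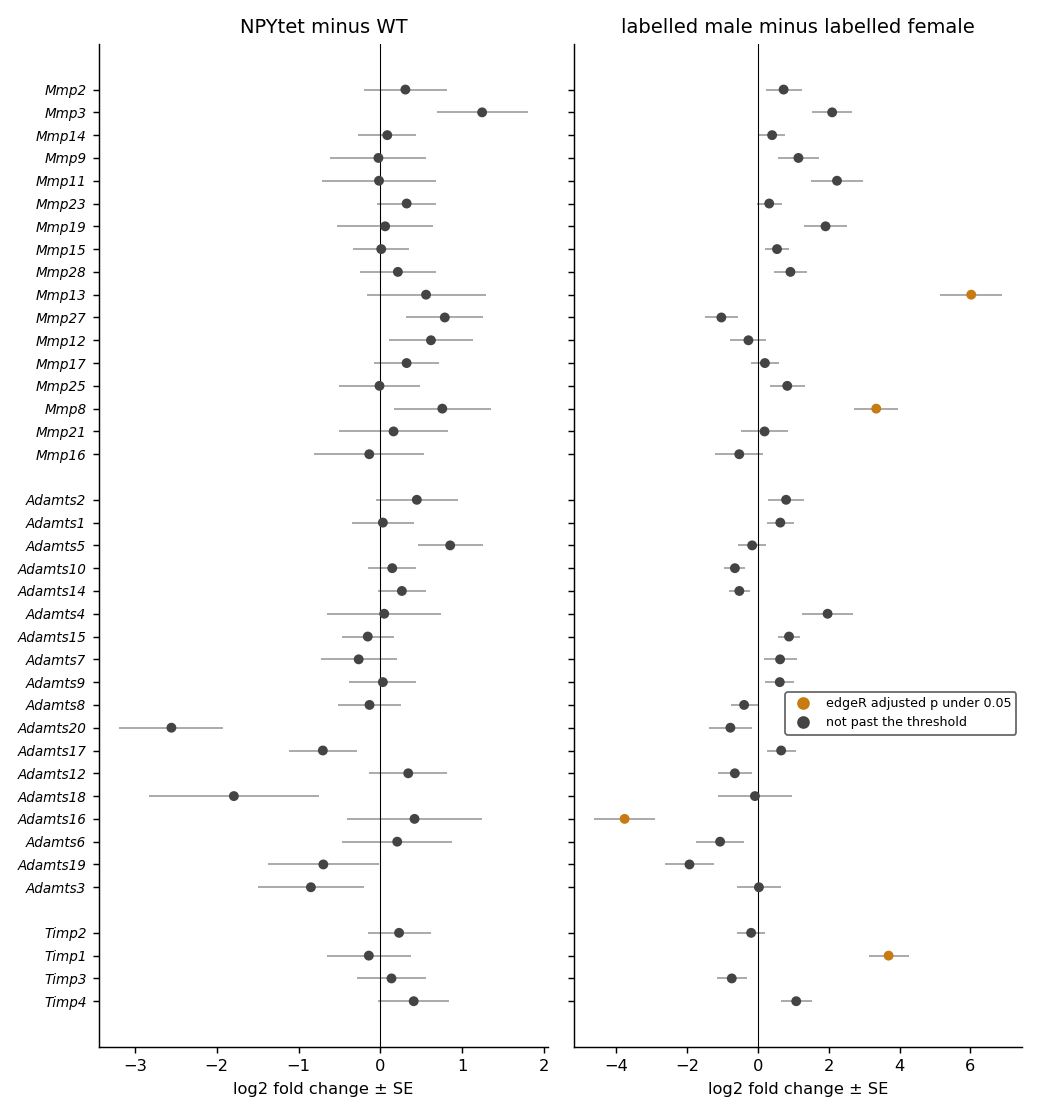
log2 fold change with its SE for each of the 39 tested genes, NPYtet minus WT in the left panel and labelled male minus labelled female in the right panel, with genes past an edgeR adjusted p of 0.05 in orange. No gene is orange on the left; Mmp13, Mmp8 and Timp1 are orange to the right of 0 and Adamts16 to the left of it in the sex panel.

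Adamts20, a versican-cleaving protease known in the mouse for the belted coat pattern, had the smallest genotype p of the 45 genes. Adamts20 stood at 0.713, 0.636, 0.899, 1.05 and 0.794 CPM in NPYtet replicates 1 to 5, against 12.2, 0.846, 1.58, 6.70 and 1.60 CPM in WT replicates 1 to 5. The NPYtet libraries were low and close together, and WT replicates 1 and 4 were far above all others, while WT replicate 2 lay within the NPYtet range. Its log2 fold change was -2.55 ± 0.63 (SE), with an unadjusted edgeR p of 0.00119 and an adjusted p of 0.842; without WT replicate 1 the log2 fold change was -1.63, and the DESeq2 adjusted p was 0.0174. With no filter on low counts edgeR called it too (adjusted p = 4.48e-05), in a fit that called 409 of 32857 genes, 326 of them lower.

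Adamts18, a close relative of Adamts16, had 0.344, 0.509, 0.484, 0.55 and 3.37 CPM in NPYtet replicates 1 to 5, against 11.9, 0.529, 0.987, 3.51 and 0.683 CPM in WT replicates 1 to 5. The same WT libraries, replicates 1 and 4, were the highest in their group, and NPYtet replicate 5 stood well above the other NPYtet libraries. The log2 fold change of Adamts18 was -1.79 ± 1.04 (SE; edgeR adjusted p = 0.999), and -0.29 without WT replicate 1; with no filter on low counts the adjusted p was 0.0462. Markers of growing hair moved with part of this pattern. All 10 hair follicle keratins tested had a negative genotype fold change with a median of -4.46, but none passed the threshold (edgeR adjusted p = 0.999 each). Their SE ran from 0.79 (Krt32) to 3.19 (Krt86), and only Krt32 had an unadjusted edgeR p under 0.05. The summed CPM of these keratins was 4.77, 854, 47.7, 15.6 and 7934 in NPYtet replicates 1 to 5, against 11537, 20299.8, 135, 8723 and 5089 in WT replicates 1 to 5. WT replicate 2, with the highest hair keratin sum, had low Adamts20 and Adamts18, and so did WT replicate 5 with a sum of 5089. NPYtet replicate 5, with a sum of 7934, had low Adamts20 but the highest Adamts18 of its group. The part of hair growth in these differences was not tested.

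Adamts17 and the procollagen N-proteinase Adamts3 also had negative fold changes. Adamts17 was measured at 1.23, 2.74, 1.15, 1.01 and 2.71 CPM in NPYtet replicates 1 to 5, against 4.26, 2.43, 1.32, 2.83 and 3.50 CPM in WT replicates 1 to 5, with overlapping groups (log2 fold change -0.70 ± 0.41 SE). Adamts3 was at 0.271, 0.509, 0.254, 0.275 and 0 CPM in NPYtet replicates 1 to 5, against 0.826, 0.423, 0.188, 0.761 and 0.267 CPM in WT replicates 1 to 5. That is 0 to 46 reads a library, and the groups overlapped (log2 fold change -0.85 ± 0.65 SE).

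Adamts5, an aggrecanase, went the other way. It had 69.3, 107, 111, 168 and 241 CPM in NPYtet replicates 1 to 5, against 89.6, 84.9, 125, 51.5 and 35.8 CPM in WT replicates 1 to 5. The 2 highest libraries were NPYtet replicates 5 and 4 and the 2 lowest were WT replicates 5 and 4, with the rest overlapping. The log2 fold change was 0.85 ± 0.40 (SE; edgeR adjusted p = 0.999), and 0.44 without NPYtet replicate 5, the library with many mitochondrial reads.

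Mmp3, which cleaves many matrix proteins and can activate other pro-MMPs, had the largest positive genotype fold change of the 39. It reached 269, 611, 59.3, 49.0 and 151 CPM in NPYtet replicates 1 to 5, against 24.4, 164, 50.7, 186 and 332 CPM in WT replicates 1 to 5. Each group spanned more than a 10-fold range, and apart from WT replicate 1 the WT values lay within the NPYtet range. The log2 fold change after the sex term was 1.25 ± 0.55 (SE; edgeR adjusted p = 0.999), and it was 0.66 without NPYtet replicate 1. Mmp27, a neighbour of Mmp3 on the same chromosome, stood at 24.6, 4.42, 20.3, 13.1 and 19.4 CPM in NPYtet replicates 1 to 5, against 11.5, 1.48, 16.4, 7.78 and 7.09 CPM in WT replicates 1 to 5. In each genotype its lowest library was replicate 2, and the groups overlapped (log2 fold change 0.79 ± 0.47 SE, edgeR adjusted p = 0.999).

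The gelatinases and the membrane enzyme varied several-fold among libraries of both genotypes. Mmp2, which cleaves denatured collagen and basement membrane, had 1171, 769.9, 364, 368 and 433 CPM in NPYtet replicates 1 to 5, against 246, 1012, 340.1, 433 and 1105 CPM in WT replicates 1 to 5. Mmp14, the membrane-bound activator of pro-MMP2, had 435, 331, 219.9, 208 and 226 CPM in NPYtet replicates 1 to 5, against 189, 345, 208, 239 and 492 CPM in WT replicates 1 to 5. NPYtet replicates 1 and 2 and WT replicates 2 and 5 were the 4 highest libraries for both genes, so that neither separated by genotype (log2 fold changes 0.31 ± 0.51 and 0.09 ± 0.36 SE). Mmp9, the gelatinase carried by neutrophils and other leukocytes, had 62.1, 131, 44.0, 45.8 and 19.5 CPM in NPYtet replicates 1 to 5, against 24.9, 219, 44.3, 27.2 and 95.3 CPM in WT replicates 1 to 5. Replicate 2 was the highest library of each genotype, and the log2 fold change was -0.02 ± 0.59 (SE).

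Among the other MMP genes of higher level, Mmp11 (stromelysin 3, known from stromal cells) had 17.2, 8.84, 15.4, 10.7 and 95.6 CPM in NPYtet replicates 1 to 5, against 11.7, 120.02, 10.7, 7.83 and 78.2 CPM in WT replicates 1 to 5. NPYtet replicate 5 and WT replicates 2 and 5 were several-fold above the other 7 libraries (log2 fold change -0.02 ± 0.70 SE). Mmp23 had 44.7, 18.1, 22.1, 21.0 and 51.5 CPM in NPYtet replicates 1 to 5, against 20.9, 36.3, 23.5, 18.3 and 33.3 CPM in WT replicates 1 to 5, with overlapping groups (0.32 ± 0.36). Mmp19 had 18.3, 114, 13.4, 17.1 and 5.23 CPM in NPYtet replicates 1 to 5, against 13.0, 82.0, 17.5, 22.5 and 71.6 CPM in WT replicates 1 to 5; NPYtet replicate 2 and WT replicates 2 and 5 were the highest (0.06 ± 0.58).

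The inhibitors differed less between genotypes than between libraries. Timp2 stood at 1619, 733, 811, 823 and 628 CPM in NPYtet replicates 1 to 5, against 536, 804, 785, 489 and 1144 CPM in WT replicates 1 to 5; apart from NPYtet replicate 1 the groups shared one range (log2 fold change 0.23 ± 0.39 SE). Timp3, the inhibitor that stays bound to the matrix, had 167, 83.8, 72.2, 133 and 28.8 CPM in NPYtet replicates 1 to 5, against 84.3, 27.6, 86.2, 73.7 and 103 CPM in WT replicates 1 to 5 (0.14 ± 0.42). The extremes of Timp3 lay in both groups. Timp4 had 19.1, 32.9, 9.11, 19.5 and 15.9 CPM in NPYtet replicates 1 to 5, against 5.01, 43.1, 12.3, 18.9 and 14.3 CPM in WT replicates 1 to 5, again with overlap (0.41 ± 0.44). None of these 3 passed the edgeR threshold (adjusted p = 0.999 each).

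**Figure D3:**
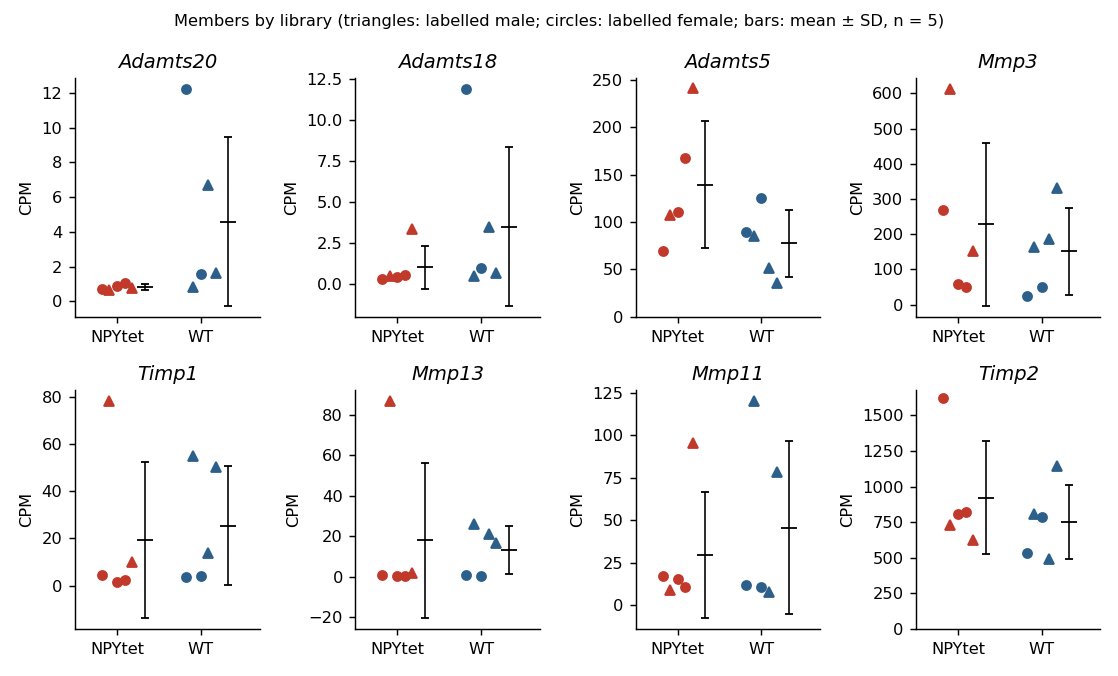
CPM of 8 genes in each library, NPYtet in red left of WT in blue, triangles labelled male and circles labelled female, with the mean and SD of 5 libraries beside each group. Adamts20 is low in all 5 NPYtet libraries and reaches 12.2 CPM in WT replicate 1; Timp1 and Mmp13 are high in triangles of both genotypes.

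Labelled sex separated some of these genes, with genotype in the same fit. Of the 39 tested, 3 were higher in libraries labelled male (Mmp8, Mmp13 and Timp1), where 1.36% of all genes were called higher, and 1 was lower (Adamts16), where 1.12% of all genes were called lower. The same 4 genes had male and female values that did not overlap, against 8.44% of all genes. An unadjusted edgeR p under 0.05 was found for 13 of the 39, and for 4438 of all 18060 genes. The median log2 fold change of the 39 was 0.40 and that of all genes -0.07. Without NPYtet replicate 1, the library whose reads go against its label, the sex log2 fold change was 6.17 for Mmp13 (edgeR adjusted p = 0.0214), 3.37 for Mmp8 (0.0235), 3.94 for Timp1 (0.00387) and -3.87 for Adamts16 (0.0285). In that fit 8 of 42 tested members were called, and 569 of all 18397 genes. The others were higher in libraries labelled male: Mmp3 at 2.74 (edgeR adjusted p = 0.00614), Mmp10 at 9.42 (0.0209), Mmp1b at 8.46 (0.0261) and Adamts2 at 1.43 (0.0382). Without WT replicate 4, 8 of 39 members were called, but so were 2725 of all 18321 genes. Without NPYtet replicate 5, 8 of 41 members and 579 of all 18401 genes were called. Only 2 members were called when NPYtet replicate 3, NPYtet replicate 4 or WT replicate 3 was left out (97, 89 and 58 of all genes). Stress keratins moved with labelled sex too: Krt6a (4.66), Krt16 (6.46) and Krt17 (2.34, all log2) were called higher in the libraries labelled male, with 4.81, 6.99 and 2.42 in the same order without NPYtet replicate 1 (edgeR adjusted p of 0.00109 to 0.0371). The summed CPM of the 10 neutrophil markers was 61.9 to 312 in those libraries and 8.62 to 21.5 in those labelled female. Of these 10 markers, 6 were tested and 3 were called higher in libraries labelled male (S100a8 at log2 5.85, Cxcr2 at 5.08 and Retnlg at 3.05; edgeR adjusted p of 0.00269, 0.0174 and 0.0311, and of 0.00271, 0.0373 and 0.0261 without NPYtet replicate 1), while Ltf had a sex log2 fold change of -3.28 (edgeR adjusted p = 0.171). The part of neutrophils and of epidermal stress in the sex differences was not tested.

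Mmp13, a collagenase that cuts fibrillar collagens, had the largest difference between labelled sexes. It was measured at 0.689, 86.7, 0.208, 0.504 and 1.59 CPM in NPYtet replicates 1 to 5, against 0.594, 26.2, 0.376, 21.2 and 16.7 CPM in WT replicates 1 to 5. The 5 libraries labelled male all exceeded the 5 labelled female, but NPYtet replicate 5 did so narrowly. The sex log2 fold change was 6.02 ± 0.87 (SE; edgeR adjusted p = 0.00751), and 4.34 without NPYtet replicate 2, still past the threshold. The genotype log2 fold change was 0.56 ± 0.73 (SE), and -1.25 without NPYtet replicate 2.

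Mmp8, the neutrophil collagenase, was scarce, with 5 to 125 reads a library. It had 0.172, 3.98, 0.115, 0.137 and 0.529 CPM in NPYtet replicates 1 to 5, against 0.129, 1.53, 0.165, 0.447 and 0.831 CPM in WT replicates 1 to 5. Every library labelled male was higher than every library labelled female in both genotypes. The sex log2 fold change of Mmp8 was 3.34 ± 0.62 (SE; edgeR adjusted p = 0.017). The call was lost without WT replicate 3 (adjusted p = 0.0576), NPYtet replicate 2 (0.0566), NPYtet replicate 3 (0.0602) or NPYtet replicate 4 (0.0599). The genotype log2 fold change was 0.76 ± 0.60 (SE), and -0.36 without NPYtet replicate 2.

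Timp1, a secreted inhibitor induced in inflamed and wounded tissue, showed the sex difference with the smallest p among the 45 genes. It had 4.50, 78.4, 1.66, 2.20 and 9.86 CPM in NPYtet replicates 1 to 5, against 3.56, 55.1, 4.0, 13.9 and 50.5 CPM in WT replicates 1 to 5. NPYtet replicate 2 and WT replicates 2 and 5 were high, NPYtet replicate 5 and WT replicate 4 were intermediate, and the 5 libraries labelled female were low. The sex log2 fold change was 3.69 ± 0.56 (SE; edgeR adjusted p = 0.00751), with adjusted p-values of 0.00247 to 0.0323 when each library was left out in turn, and the genotype log2 fold change was -0.14 ± 0.51 (SE).

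Adamts16 was the one member lower in the libraries labelled male. It had 0.516, 0.127, 0.507, 2.66 and 0 CPM in NPYtet replicates 1 to 5, against 0.413, 0, 1.32, 0.149 and 0 CPM in WT replicates 1 to 5, with 0 to 116 reads a library. In 3 of the 5 libraries labelled male it had no read, and the other 2 lay below every library labelled female. The sex log2 fold change was -3.76 ± 0.86 (SE; edgeR adjusted p = 0.0367). Leaving out 1 library ended the call in 7 of 10 cases: the adjusted p was 0.0888, 0.17 and 0.0672 without WT replicates 2, 3 and 5, and 0.0511, 0.0643, 0.0984 and 0.0663 without NPYtet replicates 2, 3, 4 and 5. Mmp3 had a sex log2 fold change of 2.10 ± 0.56 (SE) and missed the threshold over all 10 libraries (edgeR adjusted p = 0.0647). It passed without NPYtet replicate 1, the library whose reads go against its label (2.74 ± 0.46 SE, edgeR adjusted p = 0.00614).

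A pair of scarce collagenase and stromelysin genes outside the test of all 10 libraries followed the same libraries. Mmp10 (stromelysin 2, known from wound-edge keratinocytes) had 0.0738, 17.5, 0.0231, 0 and 0 CPM in NPYtet replicates 1 to 5, against 0, 5.08, 0, 2.17 and 2.82 CPM in WT replicates 1 to 5. Mmp1b, a rodent relative of the interstitial collagenase, had 0, 3.56, 0, 0 and 0 CPM in NPYtet replicates 1 to 5, against 0, 0.793, 0, 0.53 and 0.386 CPM in WT replicates 1 to 5. Both were highest in NPYtet replicate 2, were present in WT replicates 2, 4 and 5, and had no read in NPYtet replicate 5.

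The relation to stress keratins was measured with a score, the mean log2 CPM of Krt6a, Krt6b, Krt16 and Krt17. The score was 6.76, 11.8, 4.92, 4.74 and 8.88 in NPYtet replicates 1 to 5, against 5.29, 13.0, 5.56, 9.71 and 11.7 in WT replicates 1 to 5. Every library labelled male scored above every library labelled female, so over the 10 libraries keratin level and labelled sex move together. Over the 10 libraries, 5 of the 39 genes rose with the score, where 8.24% of 18056 genes did, and 5 fell with it, where 12.3% did (two-sided permutation test of Pearson's r with 100000 resamples, adjusted over all genes). The positive ones were Timp1, Mmp13, Mmp8, Adamts15 and Mmp3, and the negative ones Adamts16, Adamts19, Mmp27, Adamts6 and Mmp16. Without WT replicate 2 and NPYtet replicate 2, the 2 libraries farthest from the median score, no gene of all those tested passed the permutation threshold, 3695 had an unadjusted p under 0.05, and so did 7 of the 39 members.

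**Figure D4:**
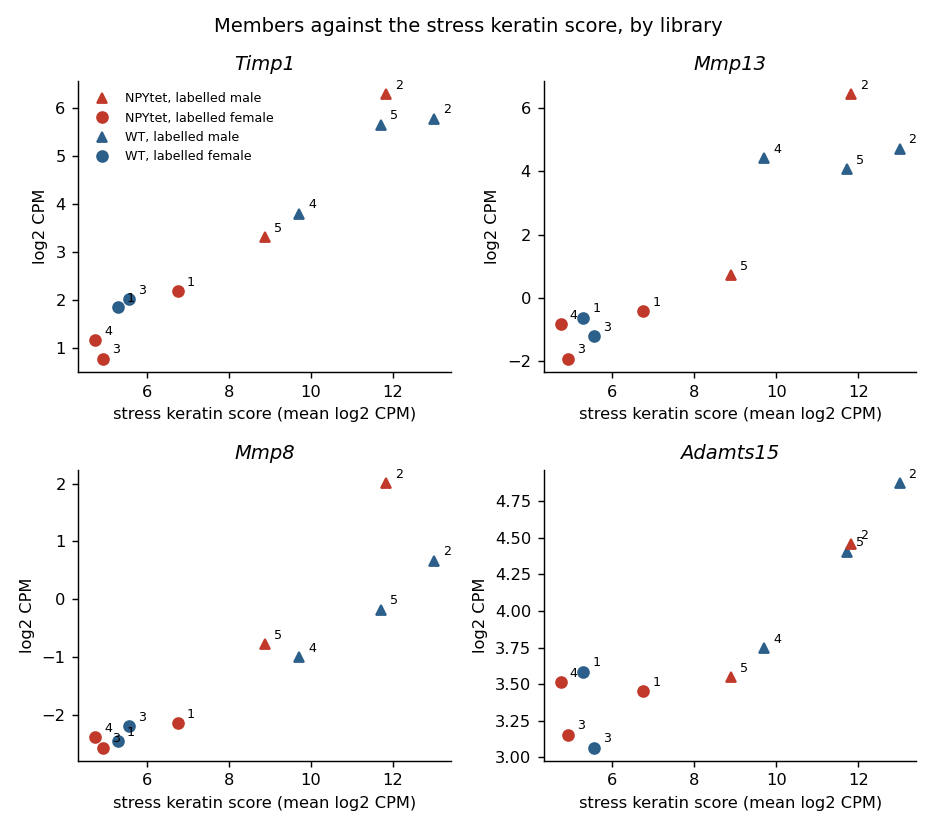
log2 CPM of 4 genes against the stress keratin score in each of the 10 libraries, numbered by replicate, NPYtet in red and WT in blue, triangles labelled male and circles labelled female. Timp1 climbs steadily along the whole score (r = 0.976), whereas Mmp13 steps up between the circles and the triangles, with NPYtet replicate 5 between them.

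Timp1 followed the keratin score most closely of the 39 genes, with Pearson's r of 0.976 (permutation p = 3e-05, adjusted p = 0.00564) and Spearman's rho of 0.976 (permutation p = 4e-05, adjusted p = 0.0215). Without the 2 farthest libraries r was 0.976, and with values centred within each labelled sex it was 0.900 (permutation adjusted p = 0.00997). The collagenases came next. Mmp13 had r = 0.936 (permutation p = 0.00023, adjusted p = 0.00846) and rho = 0.915 (permutation p = 0.00051, adjusted p = 0.0223). Mmp8 had r = 0.919 (permutation p = 0.00016, adjusted p = 0.00794) and rho = 0.939 (permutation p = 0.00021, adjusted p = 0.0215). Without the 2 farthest libraries r was 0.921 for Mmp13 and 0.976 for Mmp8, but centred within labelled sex it was 0.677 and 0.673 and missed the threshold (permutation adjusted p = 0.1 for Mmp13 and 0.101 for Mmp8).

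Adamts15, a proteoglycan-cleaving relative of Adamts5, lay in a narrower range: 10.9, 21.9, 8.86, 11.4 and 11.6 CPM in NPYtet replicates 1 to 5, against 12.0, 29.3, 8.32, 13.4 and 21.1 CPM in WT replicates 1 to 5. The 3 libraries with a keratin score above 11 were the 3 highest, and the other 7 lay close together. It had r = 0.908 (permutation p = 0.00018, adjusted p = 0.00802), rho = 0.806 (permutation p = 0.00766, adjusted p = 0.0538), r = 0.821 without the 2 farthest libraries, and r = 0.844 centred within labelled sex (permutation adjusted p = 0.0232). Leaving out WT replicate 2 alone ended its call (r = 0.876, permutation adjusted p = 0.0559). For Mmp3, r was 0.788 (permutation p = 0.00992, adjusted p = 0.0491) and rho 0.770 (permutation p = 0.0124, adjusted p = 0.0703); r was 0.816 without the 2 farthest libraries and 0.477 centred within labelled sex. Its call was lost when any library but NPYtet replicate 1 was left out (r of 0.744 to 0.872, permutation adjusted p of 0.0511 to 0.105).

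The genes that fell with the score, 5 of 39, were near the share over all genes (12.3%), and all were scarce except Mmp27. Adamts16 had r = -0.846 (permutation p = 0.00333, adjusted p = 0.0271), rho = -0.804 (permutation p = 0.0078, adjusted p = 0.0547), r = -0.862 without the 2 farthest libraries and r = -0.23 centred within labelled sex. Adamts19 had 0.393, 0.191, 1.5, 2.36 and 0.596 CPM in NPYtet replicates 1 to 5, against 3.49, 0.0529, 1.13, 1.24 and 0.416 CPM in WT replicates 1 to 5. It was lowest in replicate 2 of each genotype, and had r = -0.836 (permutation p = 0.0031, adjusted p = 0.0262), rho = -0.842 (permutation p = 0.00386, adjusted p = 0.0405), r = -0.659 without the 2 farthest libraries and r = -0.823 centred within labelled sex (permutation adjusted p = 0.0288).

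Mmp27 had r = -0.796 (permutation p = 0.00314, adjusted p = 0.0264), rho = -0.697 (permutation p = 0.0307, adjusted p = 0.108) and r = -0.583 without the 2 farthest libraries. Adamts6 had 1.03, 0.286, 0.484, 0.939 and 0.860 CPM in NPYtet replicates 1 to 5, against 1.16, 0, 0.752, 0.778 and 0.119 CPM in WT replicates 1 to 5, lowest where the keratins were highest. Its r was -0.777 (permutation p = 0.0033, adjusted p = 0.027), its rho -0.661 (permutation p = 0.0446, adjusted p = 0.131), and its r -0.628 without the 2 farthest libraries. Mmp16, a membrane-bound MMP, had 1.16, 0.604, 1.36, 1.53 and 0.993 CPM in NPYtet replicates 1 to 5, against 1.08, 0, 1.43, 2.07 and 0.920 CPM in WT replicates 1 to 5. Its relation (r = -0.633, permutation p = 0.00831, adjusted p = 0.0442; rho = -0.685, permutation p = 0.0354, adjusted p = 0.115) rested on WT replicate 2, where it had no read: r was -0.513 without that library and -0.228 without the 2 farthest. Without WT replicate 2, 3 of the 39 genes were called in place of 10, all 3 positive. The count was 4 without WT replicate 3 or NPYtet replicate 4, and 5 without WT replicate 5 or NPYtet replicate 3. Calls over all 18056 genes fell too, from 3703 to 485 without WT replicate 2. They numbered 1697 without WT replicate 3, 1505 without NPYtet replicate 4, 1903 without WT replicate 5 and 1658 without NPYtet replicate 3. These 5 negative calls each ended in 4 to 8 of the 10 fits that left out 1 library, WT replicate 2 among them every time (permutation adjusted p without it of 0.0993 for Adamts16, 0.137 for Adamts19, 0.163 for Mmp27, 0.156 for Adamts6 and 0.375 for Mmp16). The others that ended a call were WT replicate 3 and NPYtet replicate 4 for all 5 genes, NPYtet replicate 3 for all but Adamts6, WT replicate 5 for all but Adamts19, WT replicate 1 and NPYtet replicate 2 for Adamts6 and Mmp16, and NPYtet replicate 1 for Mmp16 (adjusted p without 1 of these of 0.0516 to 0.0979).

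With values centred within labelled sex, 9 of the 39 genes passed the permutation threshold, 7 of them positive. Of all 18056 genes, 3649 passed, 1651 of them positive, so the member count lay near the share over all genes. Timp1, Adamts15, Adamts19 and Adamts6 (r = -0.772, adjusted p = 0.0481) were called as before, and the other 5 were new. Mmp9 had r = 0.920 (permutation adjusted p = 0.00854), Adamts7 r = 0.947 (0.00471), Mmp19 r = 0.846 (0.0174), Mmp25 r = 0.835 (0.0229) and Mmp2 r = 0.783 (0.0391), none of which passed over the uncentred values (r of 0.637, 0.695, 0.732, 0.676 and 0.701 in the same order). Mmp27 (r = -0.693, permutation adjusted p = 0.0894) and Mmp16 (r = -0.706, 0.0742) no longer passed, nor did Mmp13, Mmp8, Mmp3 and Adamts16. For the 5 new ones the rho over uncentred values was 0.539 for Mmp9, 0.636 for Adamts7, 0.758 for Mmp19, 0.673 for Mmp25 and 0.661 for Mmp2 (permutation p of 0.113, 0.0549, 0.0148, 0.039 and 0.0443). Only 5 libraries carry each sex label, which is too few for a correlation within a sex. This centring was added after the scores had been seen to follow the labelled sex. It placed NPYtet replicate 1, whose reads go against its label, with the libraries labelled female. Among those it had the highest keratin score (6.76) and the highest Mmp9, Mmp19 and Mmp2 levels. The centred relations were not measured without it, so its part in the new calls was not tested. The permutation ran over all libraries and not within each label.

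The genes around the called collagenases lie together. On GRCm38, 9 Mmp genes stand in 427 kb of chromosome 9, between 7272514 and 7699585, in the order Mmp13, Mmp12, Mmp1b, Mmp3, Mmp10, Mmp8, Mmp27, Mmp20 and Mmp7. Neighbours in this cluster did not move alike: r with the keratin score was 0.936 for Mmp13, 0.788 for Mmp3 and 0.919 for Mmp8, but -0.434 for Mmp12 and -0.796 for Mmp27. Mmp12, the macrophage elastase, had 3.56 to 21.4 CPM in NPYtet and 3.17 to 14.5 CPM in WT libraries. Promoters of MMP genes are known for AP-1 sites, bound by Fos and Jun proteins, so the letters TGANTCA, which read the same way on both strands, were searched in the 250 bases before each RefSeq transcription start. They were found for 7 of the 9 cluster genes (not Mmp8 or Mmp27) and for 0 of the other 22 members with a promoter in the table, against 7.82% of 27025 genes; 14 members had no promoter in the table. The motif was chosen after the values were seen. The 120 bases before the start are shown for 3 cluster genes with the letters, chosen as examples that are high in NPYtet replicate 2, and for the 2 cluster genes without them, from RefSeq on GRCm38, all on the plus strand, with TGANTCA in capitals.
Mmp13, chr9:7272394-7272513: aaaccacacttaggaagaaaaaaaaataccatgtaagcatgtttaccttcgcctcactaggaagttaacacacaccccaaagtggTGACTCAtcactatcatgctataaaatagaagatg
Mmp3, chr9:7445702-7445821: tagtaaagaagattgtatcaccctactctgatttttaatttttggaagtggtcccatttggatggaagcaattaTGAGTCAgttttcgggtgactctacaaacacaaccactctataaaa
Mmp10, chr9:7502222-7502341: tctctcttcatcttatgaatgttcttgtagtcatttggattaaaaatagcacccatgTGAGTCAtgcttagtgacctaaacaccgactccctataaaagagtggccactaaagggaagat
Mmp8, chr9:7558309-7558428: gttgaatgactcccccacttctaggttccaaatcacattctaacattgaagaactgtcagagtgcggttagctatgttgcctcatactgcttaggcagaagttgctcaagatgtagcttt
Mmp27, chr9:7571276-7571395: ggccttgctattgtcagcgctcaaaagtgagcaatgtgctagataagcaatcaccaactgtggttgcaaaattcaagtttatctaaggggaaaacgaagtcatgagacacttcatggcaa

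The capitals begin at position -35 in Mmp13, -46 in Mmp3 and -63 in Mmp10, where -1 is the base before the start. Mmp8, without the letters in this window, had r = 0.919 with the keratin score, and Mmp13, with them, had r = 0.936. Mmp12 and Mmp20, with them in a window, did not rise with the score (Mmp12) or had too few reads to test (Mmp20). Of the 5 members that rose with the score, 4 had a promoter in the table and 2 of these held the letters (Mmp13 and Mmp3). A match is a string of letters in a window and says nothing of binding.

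The relation to fibrillar collagens was measured with the mean log2 CPM of Col1a1, Col1a2, Col3a1, Col5a1 and Col5a2. This score was 12.4, 11.5, 9.75, 9.98 and 11.2 in NPYtet replicates 1 to 5, against 10.03, 11.4, 10.05, 11.2 and 12.1 in WT replicates 1 to 5. The libraries fell into a low set of 4 (NPYtet replicates 3 and 4, WT replicates 1 and 3) and a high set of 6, with a gap of 43.4% of the range, so no r over all 10 is given. That r did enter the choice of members given by library, but each member it picked also qualified by its level or a keratin call. The low set held only libraries labelled female, and the high set held the 5 labelled male and NPYtet replicate 1. The reads of NPYtet replicate 1 go against its label, so the gap split the libraries as sex by reads does. Xist took 14149 to 20177 reads in the low set and 0 to 13 in the high set. Ddx3y took 0 reads in each library of the low set and 361 to 4078 in the high set. The part of sex in the collagen gap was not tested. The permutation test over the 10 libraries, in which the gap enters, called 0 of 18055 genes, with 10.9% of all genes and 6 of the 39 members at an unadjusted p under 0.05.

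Within the 6 libraries of the high set, exact permutation over the 720 orders gave an unadjusted p under 0.05 for 2.97% of all genes and for 3 of the 39 members, all upward. None passed after adjustment over all genes. With 720 orders the exact permutation p cannot fall under 0.00139. A gene could pass over 18055 genes only if many genes reached that floor, so the adjusted result decides nothing. Timp2 had r = 0.955 (exact permutation p = 0.00417) and rho = 0.943 (exact p = 0.0167). Mmp14 had r = 0.890 (exact permutation p = 0.0278) and rho = 0.829 (exact p = 0.0583). Adamts2, which removes the N-propeptide of type I and type III procollagen, had r = 0.877 (exact permutation p = 0.0222) and rho = 0.943 (exact p = 0.0167). For Mmp2 r was 0.801 (exact permutation p = 0.0736) with rho = 0.943 (exact p = 0.0167), and for Mmp3 r was 0.427 (exact permutation p = 0.4) with rho = 0.6 (exact p = 0.242). With 6 libraries, leaving out 2 would leave too few for a correlation.

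Adamts2 showed the pattern by library: 537, 314, 113, 117 and 242 CPM in NPYtet replicates 1 to 5, against 95.6, 373, 139, 197 and 409 CPM in WT replicates 1 to 5. The 4 libraries of the low collagen set were its 4 lowest, and NPYtet replicate 1 was its highest. Neither Adamts2 (log2 fold change 0.45 ± 0.50 SE) nor any of the 5 collagens of the score (all 5 above 0, median 0.47) passed the genotype threshold. In NPYtet replicate 1, which had the highest collagen score, Mmp2, Timp2 and Adamts2 each reached their highest value, while the stress keratin score of that library was the sixth highest of 10.

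**Figure D5:**
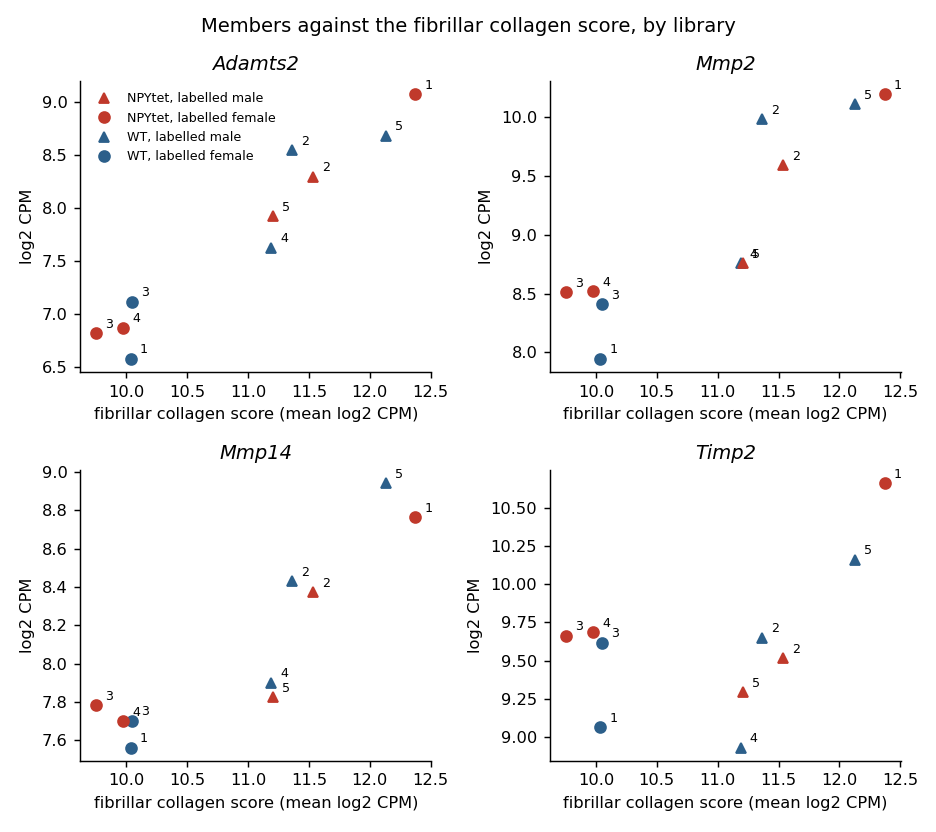
log2 CPM of 4 genes against the fibrillar collagen score in each of the 10 libraries, numbered by replicate, NPYtet in red and WT in blue, triangles labelled male and circles labelled female. Adamts2 is lowest in the 4 libraries left of the gap, while Timp2 in those 4 overlaps with the high set and tracks the score within it (r = 0.955).

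Members also moved with one another across the 10 libraries, which share their depth and tissue composition, so these correlations are descriptions. The highest were Mmp2 with Mmp14 (r = 0.970) and Mmp2 with Adamts2 (0.958), followed by Mmp8 with Timp1 (0.952) and Mmp13 with Timp1 (0.951); next came Adamts1 with Adamts9 (0.931) and Mmp19 with Adamts4 (0.927). Among 14057 genes of mean CPM of at least 1, those with the highest r to Mmp2 were Ace (0.973), Mmp14, Shc2 (0.961), Adamts2 and Sh3pxd2b (0.954). Those with the highest r to Mmp3 were Layn (0.968), Cyp7b1 (0.957), Nlrp12 (0.950), Rdh1 (0.944) and Bcat1 (0.935), so no collagen and no stress keratin was among the 5 nearest to either.

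Other genes of matrix turnover gave no edgeR genotype call either. In the plasminogen system, which activates several pro-MMPs, 6 of 8 tested genes had a fold change above 0 (median 0.23) and none an unadjusted p under 0.05. Of 9 ADAM proteases, 8 were above 0 (median 0.10), and all 7 of the other inhibitors and matrix-binding regulators were above 0 (median 0.34), with none at an unadjusted p under 0.05. Of 7 ADAMTS-like genes, which lack the protease domain, Adamtsl3 had the smallest p (log2 fold change 0.89 ± 0.37 SE, edgeR adjusted p = 0.999). Of the proteoglycans cut by ADAMTS proteases, aggrecan (Acan) stood at -3.23 ± 1.11 on the log2 scale (edgeR adjusted p = 0.999) and versican (Vcan) at -0.04 ± 0.39. Of 39 tested collagens, 20 were above 0 (median 0.02), 1 was higher and 1 lower at an unadjusted p under 0.05. Of 18 cytokines and transcription factors known upstream of MMP genes, 9 were above 0 between genotypes, and 5 were called higher in libraries labelled male, where 1.36% of all genes were. These were the cytokines Il6 (log2 4.49, edgeR adjusted p = 0.00751), Il1b (2.71, adjusted p = 0.0231) and Osm (2.94, adjusted p = 0.0409) and the AP-1 subunits Fosl1 (3.85, adjusted p = 0.0108) and Junb (2.10, adjusted p = 0.0221). Without NPYtet replicate 1 the 5 stayed past the threshold (edgeR adjusted p of 0.00859 to 0.0471). Of the other Fos and Jun genes, Fos, Fosb, Fosl2, Jun and Jund were not called.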

How the data were processed

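Polyadenylated RNA was extracted from the skin of 10 mice with TRIzol and columns and made into directional libraries, per the labels' protocols. The submitters' processing notes name STAR 2.5.2, DESeq2 1.30.1, Trimmomatic 0.36, FastQC 0.11.8, bcl2fastq and the mm10 build. The authors deposited raw counts, 1 whole number for each Ensembl ID and library. Neither the strand setting of the counting nor its annotation is given in the sources used here, so 19 members that overlap a gene on the opposite strand (among them Timp1 with Syn1, Timp3 with Syn3, Timp4 with Syn2, Mmp11 with Chchd10 and Mmp19 with Tmem198b) are uncertain. Symbols and union exon lengths came from GENCODE M21; 49412 IDs matched and 259 did not (0.0189% of reads). Mmp1a, a polymorphic pseudogene there, falls outside the rule.

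Genes were kept by filterByExpr (minimum count 10, minimum total 15) and fitted with edgeR 4.0.16 (R 4.3.3): TMM, robust quasi-likelihood, sex and genotype as terms, Benjamini-Hochberg adjustment over 18060 genes. CPM uses TMM-scaled sizes, RPKM divides CPM by exon length, and a prior count of 2 enters log2 CPM. Fold changes are log2, NPYtet minus WT or male minus female. Genes in a score were left out of its permutation test, and 2 scores were tested. Alternatives were other scaling and filters, DESeq2 1.42.0, limma 3.58.1, no sex term, a replicate block and leaving out libraries. The fits were tested on simulated data. No pair of libraries agreed within sampling noise (chi-square), so each counted once.

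Per-library values are given for the Timp genes, the 10 members of highest RPKM, the 8 of smallest genotype p, those with extreme correlations and those called; Mmp10 and Mmp1b were added after their values were seen. The members and lists were chosen with earlier results of these data known.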

Additional observations from a re-analysis of the deposited data

Results flagged for a closer look

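A single library lay far from the other 4 of its genotype for 11 of the 27 genes given by library, by Dixon's test on CPM (the gap to the nearest library divided by the group's range, above 0.71). There were 54 such group tests, and the limit flags about 1 in 20 by chance only for normal and independent values. CPM values here are skewed, and several of these genes move together, such as Mmp8 with Timp1 (r = 0.95). Some genes were also picked for extreme values, so the number flagged cannot be set against chance. NPYtet replicate 2 was the far library for 7 genes: Mmp10 at 17.5 CPM and Mmp1b at 3.56 CPM, with next values of 0.0738 and 0 CPM, and Mmp8 at 3.98 CPM, Mmp13 at 86.7 CPM, Mmp19 at 114 CPM, Adamts15 at 21.9 CPM and Timp1 at 78.4 CPM, where the next NPYtet libraries had 0.529, 1.59, 18.3, 11.6 and 9.86 CPM. This library had the highest stress keratin score of the NPYtet group. NPYtet replicate 5, the library with 9.26% mitochondrial reads, stood apart for Mmp11 at 95.6 CPM and Adamts18 at 3.37 CPM, with the next libraries at 17.2 and 0.55 CPM. NPYtet replicate 4 stood apart for Adamts16 at 2.66 CPM (next 0.516 CPM), and NPYtet replicate 1, the library whose reads go against its sex label, for Timp2 at 1619 CPM (next 823 CPM). In WT skin, replicate 1 stood apart for Adamts18 at 11.9 CPM (next 3.51 CPM). The cause of these high values was not tested.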

How the results depend on the processing

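Of the values for single genes under the alternatives, 680 of 824 kept their direction and side of the threshold, 83 fell short of it, 7 newly passed it and 54 changed sign; no reversed value had passed. Genotype calls over all genes numbered 409 with no filter on low counts, 35 with DESeq2, 2 with limma voom and quality weights, 0 without the 3 libraries that stand apart (NPYtet replicates 1 and 5, WT replicate 2), and 1 to 8 with each library left out; member calls were 2 with no filter, 1 with DESeq2 and 0 with any library left out. Sex calls numbered 2380 (12 members) with no filter, 2316 (9) with DESeq2, 5648 (22) with limma voom, 949 (9) without those 3 libraries, and 58 to 2725 (2 to 8) with each left out. With a CPM of at least 1 in at least 5 libraries they numbered 335 of 15152 genes and 2 of the 33 members tested. Mmp8 and Adamts16 do not meet that filter, so their sex difference was not tested there. Keratin relations numbered 2295 (4 members) by Spearman's rho, 0 (0) without the 2 farthest libraries and 485 to 6626 (3 to 13) with each left out; collagen relations numbered 2940 (7 members) without those 3 libraries and 0 to 8 (0) with each left out. Replicate numbers do not pair the mice: the correlation of same-numbered deviations was -0.256, 0.304, 0.644, 0.093 and 0.076, and not every NPYtet library matched its own number best. With a replicate block, 0 genes (0 members) were called for sex. Only replicate 4 had different sex labels in WT and NPYtet. The sex term of that fit therefore rested on replicate 4 alone, and its count cannot decide on the sex calls. For genotype the block called 1 gene (0 members), and the genotype log2 fold change was -0.46 for Mmp13, 0.65 for Mmp16 and -0.60 for Mmp19. Other genotype fold changes that turned were, with no sex term, Mmp2 (-0.0138), Mmp14 (-0.0525), Mmp16 (0.0203) and Mmp19 (-0.30); with upper quartile scaling, Mmp9 (0.0107) and Mmp11 (0.0623); with no filter, Mmp9 (0.0139); with the stricter filter, Mmp11 (0.0173); with limma voom, Mmp9 (0.30), Mmp23 (-0.14), Adamts2 (-0.0194), Adamts3 (0.0106), Adamts6 (-0.0253), Adamts15 (0.15) and Adamts19 (0.0217); and without the 3 libraries, Mmp9 (0.69), Mmp23 (-0.21), Mmp27 (-0.10), Adamts6 (-0.51), Adamts15 (0.15) and Timp1 (0.0549). For Adamts16 the collagen relation within the 6 high libraries (r = 0.424, rho = 0.213) had the opposite sign to that over 10, whose r is not given because of the gap in the score. With each library left out, genotype fold changes ran from -0.12 to 0.70 for Mmp2, -0.36 to 1.13 for Mmp8, -0.40 to 0.44 for Mmp9, -0.61 to 0.41 for Mmp11, -1.25 to 0.97 for Mmp13, -0.14 to 0.32 for Mmp14, -0.36 to 0.34 for Mmp16, -0.95 to 0.46 for Mmp19, -0.14 to 0.73 for Adamts2, -0.21 to 0.78 for Adamts6, -0.30 to 0.0585 for Adamts15, -0.39 to 0.94 for Adamts16, -1.0 to 0.18 for Timp1 and -0.0712 to 0.48 for Timp3. The cause of these changes was not tested. Where a group has 5 libraries that differ several-fold in a gene, a genotype change within that spread was not detectable, and genes under 1 CPM rest on few reads. The labels do not give litters or cages, so p-values measure only the spread between these mice.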
